A study of Mus musculus with 249 samples.

Results

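Chromosome 4 from 80 to 90 Mb (mouse build mm9) was followed in multiplex genome architecture mapping (GAM) data of embryonic stem cells as the 250 windows of 40 kb that start at or after 80 Mb and end by 90 Mb, out of 68162 listed windows. The windows were chosen by position and by no measured value. The stretch holds 66 protein-coding genes of the GENCODE vM1 annotation, among them Nfib, Bnc2, Cntln and Cdkn2a. In GAM, frozen cells are cut into thin sections, slices of nuclei are cut out with a laser, and the DNA in each tube is amplified and sequenced. A library therefore records which windows lay in the cut slices. All 249 libraries came from 46C cells, a Sox1-GFP knock-in line made from E14tg2a cells (strain 129/Ola), grown with serum and LIF and moved to serum-free medium before harvest. This is 1 cell line, and no sample label tells separate cultures apart, so that p-values measure the spread between libraries. The titles give 4 nuclear profiles cut per tube, and the series text gives a lower average per library. There were 54 libraries of a full collection, whose sections were stained with cresyl violet, and the others came from protocol tests. Amplification reagent volumes followed protocol A (10 libraries), B (11) or C (10). Proteinase K volumes were 1 µl (5 libraries) or 2 µl (6) by the titles, whereas the protocol text of these samples gives other, smaller volumes, larger for the latter group. PCR was run for 20 (4 libraries), 23 (5) or 25 cycles (3). Tubes were frozen after incubation (10 libraries) or not (11), and frozen early (12) or late (11). The amplification kit was large (11 libraries) or small (12). In the staining tests, sections were stained with cresyl violet (16 libraries) or were the unstained arm of the tests of cresyl violet (10), propidium iodide (20), eosin (18) and SYBR Gold (10). For the SYBR Gold libraries the protocol text describes staining, against their titles, which are followed here.

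Mammalian chromosomes fold into domains, contiguous stretches whose loci are close to each other in the nucleus more often than to loci outside, and neighbouring domains meet at boundaries. The ring-shaped cohesin complex is known for enlarging chromatin loops, and the DNA-binding protein CTCF for halting it at many boundaries. At a larger scale, gene-rich and gene-poor stretches tend to keep apart in compartments. Nfib encodes a transcription factor of the nuclear factor I family, Bnc2 a zinc-finger protein of the basonuclin family and Cntln a centrosomal protein. Cdkn2a and Cdkn2b encode inhibitors of cell cycle kinases and lie beside Mtap, an enzyme of methionine salvage. The type I interferon genes, antiviral cytokines that arose by tandem duplication, form a cluster next to them.

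Domain edges were sought as minima of the insulation score, the mean linkage of the windows on 1 side with those on the other, and 8 were found. To show what DNA lies there, the letters CCACNAGGG, 9 letters of the known CTCF motif, were searched on both strands of the mm9 sequence. Of the 8 minimum windows 4 held a match, against 57.0% of the 249 windows of the stretch with sequence for most of their bases and 65.6% of the 59863 such autosomal windows. A minimum window with its neighbours held 3.13 matches on average, and 3 adjacent autosomal windows held 3.53. The matches of the most recurrent minima follow, with 10 bases on each side, the motif letters in capitals, and the strand read 5′ to 3′. The first is in the minimum window inside Cntln, the next pair in its neighbours, and the last pair in the window to the right of the minimum between Sh3gl2 and Adamtsl1, whose own window held none.
Cntln minimum, chr4:84752484-84752512, minus strand: tttgttgaagCCACAAGGGaagtgatgta
Cntln minimum, left neighbour, chr4:84693258-84693286, plus strand: catgttctgtCCACTAGGGtattctatag
Cntln minimum, right neighbour, chr4:84797075-84797103, plus strand: ctctaggtccCCACCAGGGcaagaacttg
Sh3gl2 to Adamtsl1 minimum, right neighbour, chr4:85445568-85445596, minus strand: atgaatcctgCCACCAGGGgtcaaacaac
Sh3gl2 to Adamtsl1 minimum, right neighbour, chr4:85475406-85475434, plus strand: cagaaagctgCCACCAGGGatccaacatt

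At the minima beside Tyrp1 and Acer2, 1 run of 29 bases recurred, and it is shown because it made up 4 of the 6 matches in those minimum windows.
Shared run, first of 2 copies in the minimum window beside Tyrp1, chr4:80550269-80550297, plus strand: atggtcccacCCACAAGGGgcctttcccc
It occurred 5 times in the minimum windows and their neighbours, 14 times in 12 windows of the stretch (4.82% of them), and 4252 times in 3558 autosomal windows (5.94%). Most matches in these 2 minimum windows were thus copies of a sequence that is repeated throughout the genome.

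Detection varied from window to window, with a peak around Ttc39b and 2 low windows near the interferon genes and Cdkn2a. A window was called positive in a library when at least 4 reads fell in it by the authors' threshold, and a window that was not called may have been absent from the slices or covered by too few reads. The deposited table holds calls only, so that sequencing depth cannot be read from it. The 250 windows were positive in 14 to 79 of the 249 libraries, with a median of 48 and a mean of 48.6 ± 8.69 (SD over windows). Detection was highest around Ttc39b, a tetratricopeptide repeat gene. The window chr4:82880001-82920000 inside the gene was positive in 79 libraries (31.7%), chr4:82960001-83000000 with its start in 77 (30.9%) and the next window, chr4:83000001-83040000, in 73 (29.3%). The lowest were 2 windows at 14 libraries (5.62%). One, chr4:88400001-88440000, carries Ifnz and a run of interferon-like predicted genes at a GC content of 52.4%, the highest of the stretch. The other, chr4:88960001-89000000, borders the window of Cdkn2a and Cdkn2b, and 6.77% of its bases are called in the assembly, the rest being unread. The next, chr4:89920001-89960000, was positive in 29 libraries. These 2 windows fell under the minimum of 25 libraries used for linkage, which left 248. At least 40 libraries were reached by 88.8% of the windows, against 84.7% of autosomal windows.

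**Figure D1:**
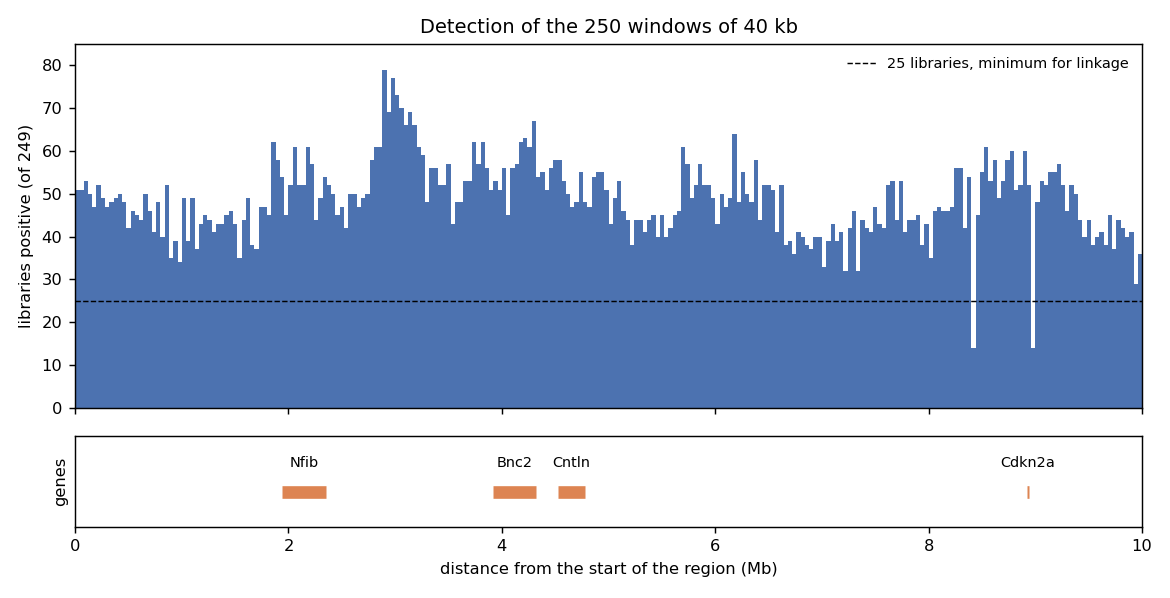
Number of libraries (of 249) in which each of the 250 windows of 40 kb was positive, against the distance from the start of the stretch in Mb, with the extent of Nfib, Bnc2, Cntln and Cdkn2a below. Counts peak near 3 Mb, at up to 79 libraries, and drop to 14 at 2 windows under the dashed line of 25 libraries.

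Blocks of 1 Mb differed in detection, in an order that did not follow their number of gene starts. Their means ran from 42.5 libraries at 87 to 88 Mb to 56.9 at 83 to 84 Mb. The blocks from 82 to 85 Mb, which hold Nfib, Cer1 (a secreted Nodal and BMP antagonist), Ttc39b, Psip1 (a chromatin-bound coactivator) and Bnc2, had means of 54.8, 56.9 and 54.5 libraries. The block from 88 to 89 Mb, with the interferon and Cdkn2 genes and 38 of the gene starts, had a mean of 48.4. The 40 windows with a gene start had a mean of 51.6 ± 10.4 libraries (SD) and the others 48.1 ± 8.24, a difference that was not tested. Mean GC content was 40.8%, against 41.9% in the other autosomal windows, and across windows it went with detection only weakly (Pearson r = 0.195, Spearman rho = 0.268, description over 250 windows that share libraries).

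The share of the stretch that was positive varied widely between libraries. The share of the 250 windows positive in a library ran from 0 to 83.2%, with a median of 15.6% and a mean of 19.5 ± 18.3% (SD, n = 249). Over the other autosomes the same libraries held 19.4 ± 8.16%. No window of the stretch was positive in 21 libraries (8.43%), and more than 50% of the windows were in 17. The longest run of adjacent positive windows was 6 windows (0.24 Mb) in the median library and 83 (3.32 Mb) at most. Among 216 segments of 10 Mb on the autosomes, the number of libraries with no positive window had a median of 24 and ran from 0 to 43. The mean difference between the stretch and the other autosomes was 0.155 percentage points (SE 1.03, higher in 112 of 249 libraries, two-sided sign-flip permutation test p = 0.881). Against the rest of chromosome 4 it was -0.142 points (SE 0.861, higher in 106 libraries, adjusted p = 0.881 over both comparisons). Neither difference was larger than the spread between libraries.

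**Figure D2:**
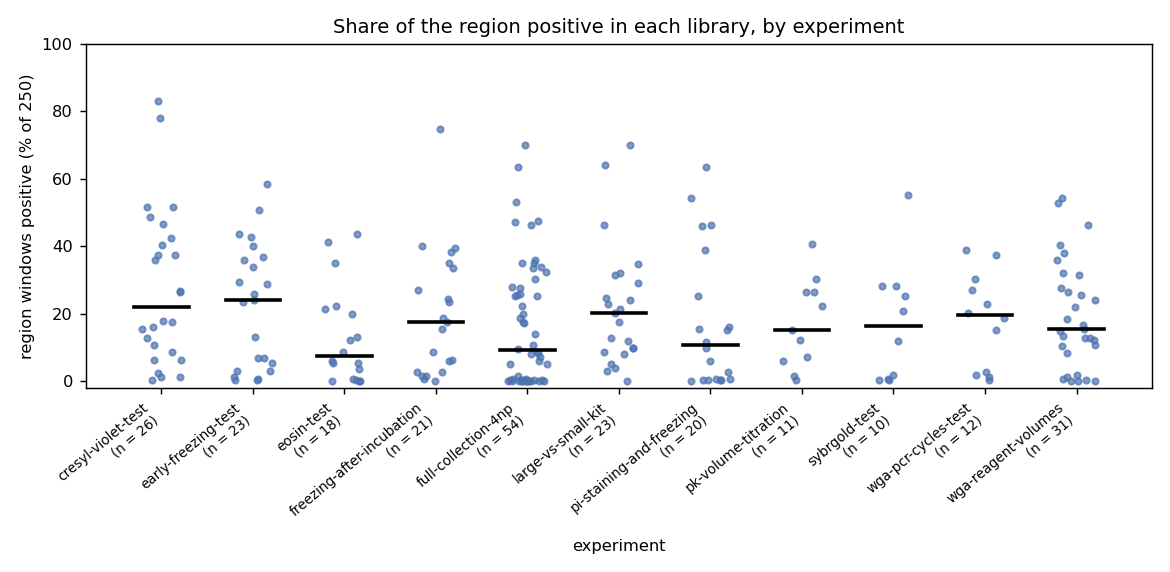
Percent of the 250 windows positive in each library (points), by experiment as titled, with the median as a bar and the number of libraries below. Medians run from 7.4% in the eosin test to 24.0% in the early freezing test, and libraries of nearly every experiment spread from near 0 to above 38%.

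The experiments and protocol arms did not differ detectably in the stretch. Medians of the share positive ran from 7.4% in the eosin test (18 libraries) and 9.2% in the full collection to 24.0% in the early freezing test (23 libraries). With the other autosomes subtracted, experiments accounted for 3.37% of the variance (F = 0.831, permutation test p = 0.602). Of 11 contrasts between arms of 1 experiment, 0 passed an adjusted p of 0.05 in the permutation test and 1 had an unadjusted p under it. Frozen libraries stood 13.2 points below unfrozen ones after incubation, at -4.83 ± 9.31 (SD, n = 10) against 8.36 ± 17.3 (n = 11), with an adjusted p of 0.502. Without subtraction, libraries frozen early held 32.1 ± 17.9% and those frozen late 11.9 ± 12.3%, with an adjusted p of 0.0683. With subtraction the same arms were at 2.20 ± 16.8 and -5.83 ± 11.6 points, with an adjusted p of 0.993 in the permutation test. The arm of 25 PCR cycles held 3 libraries, and against 4 libraries the smallest p an exact test allows is 0.0286. No window of the stretch was called between 16 cresyl violet stained and 10 unstained libraries by Fisher's exact test with adjustment over 59680 windows, of which 0% were called. At an unadjusted p under 0.05 there were 2 of 248, against 2.61% of all windows, and both lay inside Nfib, at chr4:82040001-82080000 and the next window. For each, 3 of the 16 stained libraries were positive and 6 of the 10 unstained ones (p = 0.0461 by the exact test of Fisher, adjusted p = 1). With libraries stratified by their coverage, 0 windows of the stretch passed the unadjusted threshold of 0.05 in a Mantel-Haenszel chi-square test, an approximation, and 596 of all 59680 windows did.

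The windows that hold the starts of the named genes were detected at similar levels. The Nfib start window, chr4:82320001-82360000, was positive in 54 libraries (21.7%), the Bnc2 window chr4:84320001-84360000 also in 54, the Cntln window chr4:84520001-84560000 in 58 (23.3%) and the Cdkn2a window chr4:88920001-88960000 in 52 (20.9%). The order of these levels is within a difference of 6 libraries. At these single windows the shares varied between experiments. The Cntln start was positive in 4 of 54 libraries of the full collection (7.41%) and in 54 of the 195 others (27.7%). The Bnc2 start was positive in 7 (13.0%) and 47 (24.1%), while the Nfib start was positive in 15 (27.8%) and 39 (20.0%). The Cdkn2a start was at 10 (18.5%) and 42 (21.5%), and at 0 of 18 in the eosin test. The differences between these shares were not tested.

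Linkage between windows of the stretch fell with distance, as on the chromosome as a whole. It was measured as D′, the normalized linkage disequilibrium: how much more often 2 windows were positive together than their own detection frequencies give, relative to the largest possible difference, so that 0 is independence and 1 the maximum. Errors are jackknife standard errors over the 249 libraries. Mean D′ was 0.616 ± 0.0140 between adjacent windows, 0.441 ± 0.0175 at 240 to 400 kb, 0.288 ± 0.0207 at 1.04 to 2 Mb and 0.213 ± 0.0227 at 2.04 to 4 Mb. With windows of other autosomes it was 0.0131 ± 0.0136, less than 1 SE from 0. Up to 4 Mb the stretch lay within 0.0126 of the chromosome 4 mean in each class of distance. From 4.04 to 6 Mb it was 0.141 against 0.175, a difference of -0.0347 with a 95% interval from -0.0846 to 0.0153. From 6.04 to 9.96 Mb it was 0.102 against 0.158, a difference of -0.0561 with an interval from -0.114 to 0.00178. Both intervals hold 0.

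**Figure D3:**
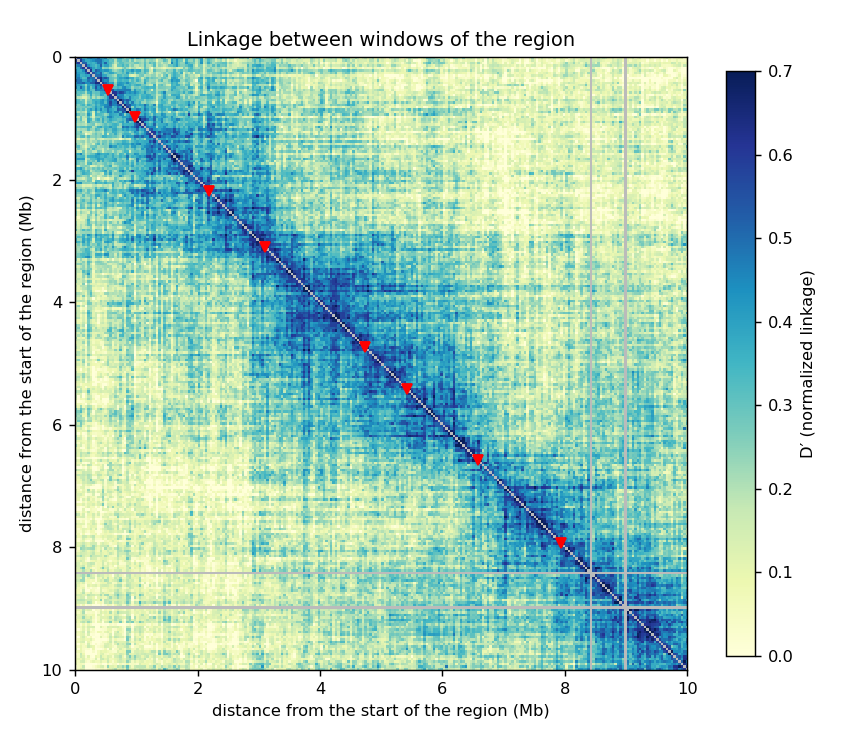
D′ between all windows of the stretch, colour scale from 0 to 0.7, with both axes as the distance from its start in Mb, grey lines for the 2 windows left out and red marks for the 8 insulation minima. Linkage is highest along the diagonal and fades with distance, and a broad square of higher values spans about 3 to 6.5 Mb.

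The insulation score, the mean D′ between the 10 windows on each side of a position, had 8 minima whose prominence reached 0.5 SD of all scores on chromosome 4. That is 3.2% of the 250 windows, against 4.35% of autosomal windows with a score, and 10 Mb segments had 5 to 15 minima with a median of 11. Of 216 segments, 200 had more minima than the stretch and 4 had fewer. The lowest score, 0.313 ± 0.0377, was at chr4:80520001-80560000 beside Tyrp1, an enzyme of melanin synthesis. The next was 0.322 ± 0.0402 at chr4:80960001-81000000 in Mpdz, a scaffold protein with many PDZ domains. The third lowest, 0.332 ± 0.0434, was at chr4:86560001-86600000, which holds Acer2, a ceramidase, and borders Slc24a2, a sodium, calcium and potassium exchanger. Inside Nfib, chr4:82160001-82200000 scored 0.373 ± 0.0364. The window chr4:85400001-85440000, between the endophilin gene Sh3gl2 and Adamtsl1, which encodes a secreted ADAMTS-like protein, scored 0.398 ± 0.0410. The window chr4:87920001-87960000 in BC057079 scored 0.398 ± 0.0390. The window chr4:84720001-84760000 in Cntln scored 0.406 ± 0.0333, and chr4:83080001-83120000, across the ends of Snapc3 (a subunit of the small nuclear RNA activating complex) and Psip1, 0.415 ± 0.0353. The mean score of the stretch was 0.420, as on chromosome 4 (0.419). The highest score, 0.522 ± 0.0320, was at chr4:84000001-84040000 in Bnc2.

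**Figure D4:**
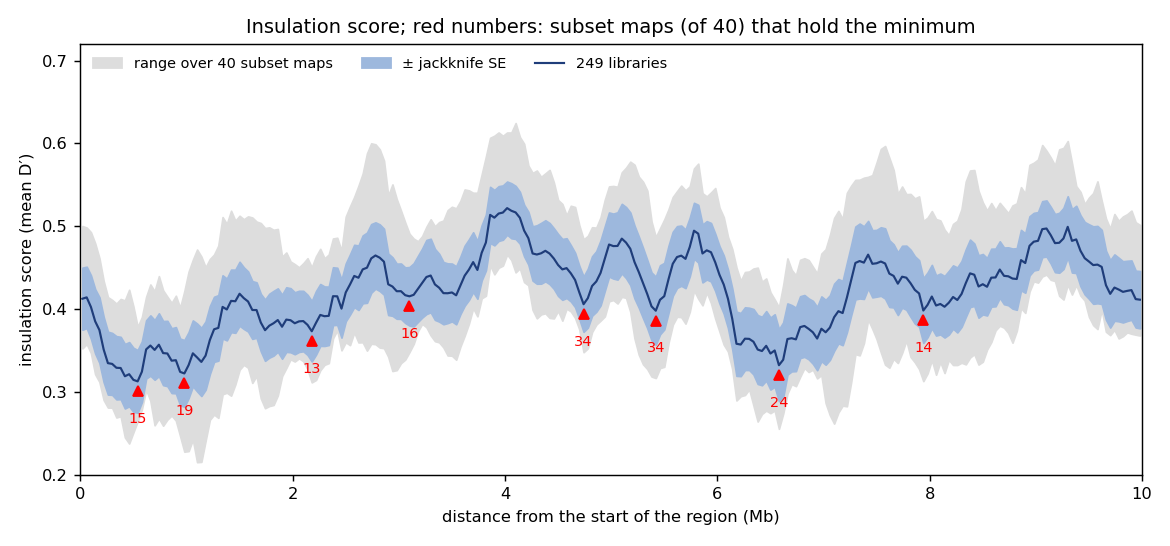
Insulation score (mean D′) along the stretch, against the distance from its start in Mb, for 249 libraries (line) with its jackknife SE (blue) and the range over 40 subset maps (grey). Red marks are the 8 minima, and the numbers give the subset maps that hold each one, from 13 in Nfib to 34 in Cntln and between Sh3gl2 and Adamtsl1.

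The minima recurred unevenly when the libraries were divided. In each of 20 random divisions, 2 sets of 124 libraries gave a map each, so that there were 40 subset maps, which overlap in libraries between divisions. A minimum was counted as present within 1 window. The subset maps hold the libraries on which the minima were called. The minimum in Cntln and the one between Sh3gl2 and Adamtsl1 were each present in 34 of 40 maps. Both sets of a division held the former in 14 of 20 divisions and the latter in 15. Both were absent with a square of 800 kb, a setting under which those beside Tyrp1 and at Acer2 were found. The Acer2 minimum was in 24 maps and in both sets of 5 divisions. The minima beside Tyrp1, in Mpdz, in Nfib, at Snapc3 and in BC057079 were in 15, 19, 13, 16 and 14 maps, and in both sets of 1, 3, 0, 2 and 0 divisions. On average a minimum of the stretch was in 52.8% of the subset maps, against 54.1% over all segments. Over all minima called in 1 set, 21.4% were matched in the other, and 11.2% of all windows of the stretch lay as near to a minimum of the other set. The medians over 10 Mb segments were 24.5% and 13.4%. With each of the 11 experiments left out in turn, the minima beside Tyrp1, in Cntln and between Sh3gl2 and Adamtsl1 were found in all 11 maps, the one at Acer2 in 10, those in Mpdz and BC057079 in 9, the one in Nfib in 6 and the one at Snapc3 in 5. The minima at Acer2, in Mpdz and in Nfib were absent without the full collection. The minima in Nfib and at Snapc3 were absent without the single library in which 83.2% of the windows were positive, an alternative chosen after seeing the data.

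Single window pairs agreed little between the sets. D′ was turned into a z-score within each distance on the chromosome, and the correlation of z-scores between the sets of a division, over pairs 80 kb to 4 Mb apart, had a median of 0.0758 (0.0357 to 0.108 over 20 divisions). This is a description, since the pairs share windows and libraries. Over the 216 segments the medians ran from -0.00646 to 0.440 with a median of 0.0647. With D′ itself, which keeps the fall with distance, the median was 0.385. In the first division, both sets gave z-scores above 1 for 454 of 18713 pairs from 200 kb to 4 Mb apart (2.43%), against 2.52% of such pairs over all segments.

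The contrast between pairs inside and across intervals between minima was small in libraries not used to call the minima. The values of the 7 intervals given next come instead from all 249 libraries, which also called their edges, and carry no errors. From left to right, mean D′ inside these intervals, which differ in length and so in the distances they hold, was 0.445, 0.403, 0.464, 0.463, 0.516, 0.446 and 0.418. Relative to the chromosome mean at the same distance, the highest was the interval of 1.6 Mb from Psip1 to Cntln that holds Bnc2, at an excess of 0.0569, and the lowest that of 0.4 Mb between the minima beside Tyrp1 and in Mpdz, at -0.0555. The left edge of the former is the minimum at Snapc3, found in 5 of the 11 maps that leave out 1 experiment. When minima were called in 1 set of libraries and measured in the other, pairs inside an interval exceeded pairs across a minimum by 0.00735 on average (SD 0.0146 over 40 maps, from -0.0305 to 0.0459). The difference was above 0 in 26 of 40 maps, so that it was smaller than its own spread. Without the full collection it was -0.00382, above 0 in 15 of 40. Without the single library in which 83.2% of the windows were positive it was 0.0124, above 0 in 34 of 40. It was 0.0126 (31 of 40) with windows positive in at least 40 libraries and 0.0108 (33 of 40) with normalized pointwise mutual information in place of D′.

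Over longer distances the highest excess linkage joined the block between Psip1 and Bnc2 to that of Sh3gl2 and Adamtsl1, and the lowest joined the blocks of Nfib and Mllt3. Excess D′, the difference from the chromosome 4 mean at the same distances, was averaged over the 36 pairs of 1 Mb blocks whose starts lie at least 2 Mb apart. It ran from -0.0919 to 0.0700 with standard errors from 0.0301 to 0.0466, and 13 pairs were above 0 and 23 below. The 95% interval lay above 0 in 1 pair and below 0 in 1, which is 2 of 36, while 4.69% of the block pairs of all segments lay above and 4.23% below. These intervals are not adjusted for the number of pairs. The highest was 83 to 84 Mb with 85 to 86 Mb, from Psip1, 4930473A06Rik and the 3′ end of Bnc2 to the ends of Sh3gl2 and Adamtsl1 that face each other, at 0.0700 ± 0.0314 (interval 0.00856 to 0.132, mean D′ 0.322). It was above 0 in 40 of 40 subset maps, which hold the libraries it was chosen on, and its excess stayed between 0.0601 and 0.0785 when each experiment was left out. Next were 85 to 86 Mb with 89 to 90 Mb at 0.0462 ± 0.0360 and 83 to 84 Mb with 86 to 87 Mb at 0.0346 ± 0.0322. The nearer pair of 83 to 84 Mb with 84 to 85 Mb, which the rule on distance leaves out, had an excess of 0.0827 ± 0.0269. Inside 80 to 81 Mb, around Tyrp1, it was -0.0760 ± 0.0285, and inside 86 to 87 Mb, around Slc24a2, -0.0625 ± 0.0293.

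The 3 lowest block pairs joined the Mpdz and Nfib side to the Slc24a2 and Mllt3 side, among generally low values at long distances. The pair of 82 to 83 Mb with 87 to 88 Mb was at -0.0919 ± 0.0466 (interval -0.183 to -5.16e-04, mean D′ 0.0828) and below 0 in each of 40 subset maps, which again hold the libraries it was chosen on. The pair of 81 to 82 Mb with 87 to 88 Mb was at -0.0806 ± 0.0418, and that of 81 to 82 Mb with 86 to 87 Mb at -0.0738 ± 0.0407, with intervals that hold 0. Other pairs were nearly as low, such as 80 to 81 Mb with 87 to 88 Mb at -0.0715 ± 0.0373. The pair of 82 to 83 Mb with 89 to 90 Mb was at -0.0676 ± 0.0421. These pairs differ from each other by less than their standard errors. The stretch as a whole stood at -0.0347 from 4.04 to 6 Mb and -0.0561 from 6.04 to 9.96 Mb. Which intervals exclude 0 rested on few libraries. Without the 26 libraries of the cresyl violet experiment, 9 pairs lay below 0 and 0 above. Without only the 1 unstained library of that experiment in which 83.2% of the windows were positive, 4 lay below and 1 above, also chosen after seeing the data. The interval of the highest pair held 0 under 3 of 16 alternatives and that of the lowest under 11. Between the sets of a division, the excess over the 36 block pairs had a median correlation of 0.436 (-0.0127 to 0.618), which is a description since pairs share blocks. With blocks of 500 kb it was 0.281 (0.000786 to 0.454) over 136 pairs. With blocks of 1 Mb the median over the other 215 segments was 0.142, and 16 of them were higher than 0.436. The excess of the stretch was lower at long distances, and how far this trend enters the correlation was not tested. When the 3 highest and 3 lowest pairs were taken from 1 set, their means in the other set were 0.00398 and -0.0436, and the former was higher in 36 of 40 cases.

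**Figure D5:**
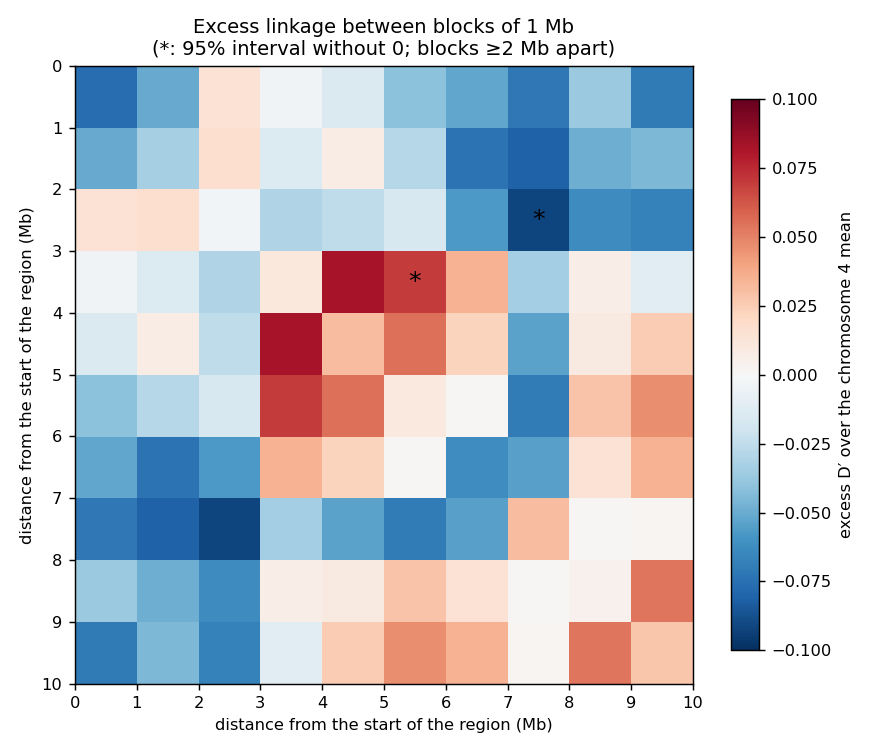
Excess D′ between blocks of 1 Mb over the chromosome 4 mean at the same distance, from -0.1 (blue) to 0.1 (red), with both axes as the distance from the start of the stretch in Mb. Stars mark the 2 of 36 far block pairs whose 95% interval leaves out 0, and the highest values lie between blocks from 3 to 6 Mb.

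Of the 9 protein-coding genes of at least 200 kb, Nfib was the one whose within-gene linkage had an interval without 0. Its 415.578 kb (chr4:81936077-82351654, minus strand) span 11 windows, positive in 44 to 61 libraries. Mean D′ inside it was 0.454 ± 0.0330, an excess of -0.0642 ± 0.0316 (interval -0.126 to -0.00228). None of 40 subset maps was above 0, though these hold the libraries that gave the interval. Under 8 of 15 alternatives the interval held 0, and the intervals are not adjusted for the 9 genes. Slc24a2 was lower still at -0.0735 ± 0.0384, with an interval from -0.149 to 0.00169 that excluded 0 under 2 of 15 alternatives. BC057079 was at -0.0361 ± 0.0402, and from -0.0801 to -0.00339 over the alternatives. Over 904 such autosomal genes, 3.43% had an interval below 0 and 9.18% above, 31 had a lower excess than Nfib and the median was 0.0130. Of the long genes, Nfib, BC057079 and Cntln contain a minimum of the insulation score, a score that shares window pairs with this measure.

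The other long genes lay at or above the chromosome mean, each with an interval that holds 0. Mllt3, a subunit of transcription elongation complexes, had the highest excess, 0.0653 ± 0.0419, and 34 of 40 subset maps were above 0. Its interval excluded 0 under 1 of 15 alternatives. Cntln was at 0.0502 ± 0.0400 (34 maps), Bnc2 at 0.0462 ± 0.0330 (38 maps) and Sh3gl2 at 0.0293 ± 0.0389 (34 maps). Adamtsl1 was at 0.00193 ± 0.0352 and 4930473A06Rik, a gene known by its clone name, at 0.000335 ± 0.0367. The differences between neighbours in this order are smaller than their errors.

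The highest linkage between the starts of the 4 named genes was that of the nearest pair, and the other pairs did not follow the order of their distances. The starts of Bnc2 and Cntln, 0.2 Mb apart, were positive together in 31 libraries, 1 of them alone in 23 and 27, and neither in 168. Their D′ was 0.445 ± 0.0802, against a chromosome mean of 0.480 at that distance. The starts of Nfib and Bnc2, 2 Mb apart, were positive together in 16 libraries, alone in 38 and 38, and absent together in 157. Their D′ of 0.101 ± 0.0761 stood below the mean of 0.249 (z = -1.58). Nfib and Cntln, 2.2 Mb apart, shared 20 libraries, with a D′ of 0.179 ± 0.0757 against 0.240. Over 14 alternatives the D′ of this pair ran from 0.141 to 0.291. The pairs with Cdkn2a lay at or above the mean of their distance. Bnc2 and Cdkn2a, 4.6 Mb apart, shared 23 libraries, with 31 and 29 alone and 166 with neither, and had a D′ of 0.288 ± 0.0788 against 0.179 (z = 1.23). Nfib and Cdkn2a, 6.6 Mb apart, shared 19 at 0.190 ± 0.0757 against 0.163, and Cntln and Cdkn2a, 4.4 Mb apart, shared 20 at 0.198 ± 0.0783 against 0.181. All 6 values lay within 2 standard errors of the chromosome mean of their distance.

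The windows most linked to the Cdkn2a start at 1 Mb or more were at Acer2 and Slc24a2 and at the right end. The Acer2 window chr4:86520001-86560000, 2.4 Mb away, shared 27 libraries with it and had a D′ of 0.405 ± 0.0807. The Slc24a2 window chr4:86600001-86640000 also shared 27, at 0.392 ± 0.0984. The window chr4:89960001-90000000 shared 19, at 0.403 ± 0.100, but its z-score was -2.16 in 1 set of the first division and 2.19 in the other. These windows were picked for high values and carry no test.

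The pairs with the highest z-scores from 200 kb to 4 Mb, chosen from pairs that exceeded 1 in each set of that division, joined 2 windows without a protein-coding gene, left of Bnc2, to the end of Cntln. The window chr4:83800001-83840000 was positive in 62 libraries and chr4:84760001-84800000 in 48, and they shared 40, with 22 and 8 alone and 179 with neither. Their D′ was 0.778 ± 0.0704 at 0.96 Mb, against a mean of 0.332 (z = 4.65, and 4.41 and 2.42 in the sets). The window chr4:83720001-83760000 shared 39 libraries with the same Cntln window (D′ 0.750 ± 0.0734, z = 4.44). The third pair joined chr4:81280001-81320000 to the Ttc39b start window over 1.68 Mb, with 31 shared libraries and a D′ of 0.647 ± 0.0947 against 0.265. The Cntln window of these pairs is the right neighbour of the Cntln minimum.

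The interferon cluster and the Mtap and Cdkn2 group had an excess linkage within 1 SE of 0. The 15 annotated genes named as type I interferons span chr4:88167929-88526105. Their 10 windows were positive in 14 to 61 libraries, and mean D′ among the 9 with enough libraries was 0.537 ± 0.0338, an excess of 0.0152 ± 0.0332. Mtap, Cdkn2a and Cdkn2b span 5 windows positive in 51 to 60 libraries, with a mean D′ of 0.567 ± 0.0424 and an excess of -0.00277 ± 0.0411. Between both groups mean D′ was 0.403 ± 0.0393 over 45 window pairs, an excess of 0.000476 ± 0.0387. Values in the cluster are uncertain where the authors' alignment could split reads between near-identical interferon copies, and whether this touched the window positive in 14 libraries was not tested.

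Windows with gene starts did not differ detectably from windows without in their linkage over long distances. Among pairs at least 1 Mb apart, the mean excess was -0.0140 ± 0.0227 where both windows held a protein-coding gene start (574 pairs), -0.0146 ± 0.0206 where 1 did (6695 pairs) and -0.0194 ± 0.0198 where neither did (17754 pairs). The difference of both minus neither was 0.00543 ± 0.0131, with a 95% interval from -0.0202 to 0.0310, and it was above 0 in 25 of 40 subset maps. Pairs with a GC content above the median in both windows differed from pairs below it in both by -0.00110 ± 0.0133. Pooled over the 216 segments, the difference by gene starts was -0.00440 ± 0.00235, with an interval from -0.00900 to 0.000209, and 108 of 215 other segments were higher than this stretch.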

How the data were processed

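Calls were analysed for 249 libraries, taken into groups by their sample titles. The authors aligned reads to mm9 with Bowtie2 (version 2.1 per the labels' processing notes), removed duplicates with Samtools and, with GAMtools, called a window of 40 kb positive at 4 reads. The deposited values are other than counts, namely calls of 0 or 1 for libraries that passed the authors' quality control, and do not give depth. All 249 columns matched a label, and no 2 libraries held identical values.

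Linkage (D′) used windows positive in at least 25 libraries, with jackknife errors, and intervals are 95%. Detection was compared by permutation tests (100000 resamples, exact where an arm held under 10 libraries) with Benjamini-Hochberg adjustment, and windows by Fisher's exact test. GC content and motifs came from NCBIM37, whose chromosome lengths equal those of the table. Functions were tested on simulated data. Python 3.11.15, NumPy 2.4.6, SciPy 1.17.1 and pysam 0.24.0 were used. Named genes were the 4 of the stretch's definition, genes of at least 200 kb, genes at minima, the interferon and Mtap to Cdkn2 groups, and windows and pairs of extreme value by fixed counts. Members and lists were chosen with earlier results of these data known.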

Additional observations from a re-analysis of the deposited data

Results flagged for a closer look

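Within the 9 protocol groups of 4 to 10 libraries, 3 of 18 checks of the highest and lowest library picked out a library far from the others of its group, 2 of these checks for the same library. Chance picks about 1 in 20 where values are normally distributed, and these shares are skewed towards high values. In the unstained arm of the cresyl violet test, 1 of 10 libraries had 83.2% of the windows of the stretch positive, and the next had 40.4%. The same library lay 48.3 percentage points above its own other autosomes, where the next of the group lay 16.4 above. In the unstained arm of the SYBR Gold test, 1 of 10 libraries had 55.2% of the windows positive, and the next had 28.4%. Without the library at 83.2%, 8 insulation minima were called, not those in Nfib and at Snapc3, and the block pairs whose interval excludes 0 rose from 2 to 5 of 36, an alternative chosen after seeing the data.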

How the results depend on the processing

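All contrasts of detection stayed above an adjusted p of 0.05 in the permutation tests under the alternatives run, the nearest being the raw early freezing contrast (0.0683) and the median difference from chromosome 4 (0.0715), and the cause of the changes that follow was not tested. The difference from the other autosomes, 0.155 points, was -0.602 over windows positive in at least 25 libraries, -0.0881 with comparison windows weighted to the same GC content and -2.15 as a median. That from the rest of chromosome 4 was 0.218 without the full collection. By medians, reagent volume protocols differed by 8.91 (B minus A), 4.65 (C minus A) and -4.26 points (C minus B). The main values of these contrasts were -0.157, -0.0607 and 0.0961 points. Without subtracting the other autosomes, B minus A was 1.46, C minus A 2.44, and 23 minus 20 PCR cycles 4.22 points. The main value for 23 minus 20 PCR cycles was -4.41, and for proteinase K 2 µl minus 1 µl -1.62. Over all alternatives the proteinase K difference ran from -10.1 to 1.39. Single libraries were left out of arms of at most 5 libraries, so not of the 2 µl arm. With 1 of the 1 µl libraries left out, proteinase K 2 µl minus 1 µl ran from -5.21 to 1.39, above 0 without library 2 (0.860) or 4, and with 1 library of either arm left out, 23 minus 20 PCR cycles from -10.2 to 3.81, above 0 without the 20-cycle library 3.

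Agreement of the maps between sets of libraries was 0.0965 with windows positive in at least 40 libraries, 0.0461 without the full collection and 0.385 with D′ in place of z-scores. Minima numbered 20 with a square of 200 kb, 5 with one of 800 kb and 15 at a prominence of 0.25 SD. Of 16 alternatives, the interval of 81 to 82 Mb with 87 to 88 Mb excluded 0 under 5 and that with 86 to 87 Mb under 2. The held-out contrast was -0.00382 without the full collection, and the gene start difference -0.00978. Block pairs with an interval without 0 numbered 9 without the cresyl violet test, 5 without the library at 83.2% (chosen after seeing the data), and 4 without the propidium iodide test. They numbered 1 without libraries under 70% neighbour share (the share of positive windows with a positive neighbour), without the full collection, early freezing, kit, proteinase K, PCR cycle or reagent volume libraries, or with the mean of all autosomes as baseline. No paired analysis was possible because the labels give no replicate numbers shared between groups. The number of libraries limits the precision of each D′, and the calls do not give depth.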
